A study of Mus musculus with 6 samples.

Results

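Heterotrimeric G protein subunits, regulators of G protein signalling (RGS), G protein-coupled receptor kinases (GRK) and beta-arrestins were followed in sorted mouse haematopoietic stem cells (HSC) with normal or lowered PU.1. Members were the genes whose platform symbol is that of an RGS, GRK, arrestin, G alpha, G beta or G gamma gene. The rule found 56 genes, covered by 130 probe sets, among 18186 genes and 44991 probe sets in all. They comprised 15 G alpha, 5 G beta, 9 G gamma, 19 RGS, 5 GRK and 2 arrestin genes, and Gnasas1, an antisense RNA of the Gnas locus that the symbol rule also caught and that encodes no subunit. Where a gene had several probe sets, the one with the highest mean stood for it, and 20 of the 56 genes had 1.

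The study compared wildtype mice with PU.1 knockdown mice, with 3 arrays in each group, and each array held bone marrow HSC RNA pooled from 3 animals. HSC were isolated by flow cytometry. How PU.1 was lowered, the strain and age of the mice, any treatment and the surface markers of the sort were not given in the sources used here. Because animals were pooled, the spread between arrays is a spread between pools.

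G protein-coupled receptors act through a G alpha subunit that binds GTP and a G beta-gamma dimer, and each of them passes the signal on. RGS proteins speed up GTP hydrolysis by G alpha and so shorten the signal, while GRKs phosphorylate active receptors and arrestins then bind them and uncouple them from the G protein. In HSC this machinery serves the chemokine receptor Cxcr4 and other receptors that hold the cells in the marrow.

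Median intensity per array ran from 81.4 to 91.5, and arrays of different groups resembled each other (Pearson's r of 0.955 to 0.973 over probe sets) nearly as much as arrays of the same group (0.964 to 0.979). Values below are log2(intensity + 16) after quantile normalisation, and differences are knockdown minus wildtype on that scale, each with its standard error (SE) from limma. Values of 3 pools are always given in the order of pools 1, 2 and 3. Spi1, which encodes PU.1, read 10.13, 9.42 and 10.08 for wildtype against 8.73, 8.55 and 7.06 for knockdown. The groups did not overlap, and the difference was -1.76 (SE 0.43, Benjamini-Hochberg adjusted p = 0.503 by limma, exact permutation p = 0.1). Of 17 stem cell markers measured, 14 had a lower mean in the knockdown pools (46.6% of all genes did). Tek (-0.99, SE 0.21), Prdm16 (-1.31, SE 0.32) and Mecom (-0.82, SE 0.34) had an unadjusted limma p under 0.05 (3.52% of all genes were lower at it). Among the others, Kit was bright in every pool, at 10.19 to 11.17, as were Cd34 at 9.97 to 11.45 and Procr at 9.20 to 10.68. The neutrophil granule list, at pool means of 10.09 to 11.80, was also bright. Which of the sorted cells held these transcripts was not tested.

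Of the 56 member genes, 0 passed limma at an adjusted p under 0.05 over all probe sets, as did 0 of all 18186 genes (0%). At an unadjusted p under 0.05 there were 7 members, or 12.5%, beside 7.63% of all genes and 7.11% of all probe sets. Lower in the knockdown pools were Grk3, Rgs2, Rgs10, Rgs19 and Gnaz, 5 members where 3.52% of all genes met that rule, and higher were Gna14 and Gna15, 2 members beside 4.1%. On the probe sets that stood for the genes, the limma p of these 7 reached 0.0184, and next came Gng4 at 0.107. Rgs3, Gnaq, Gna12, Gnb4, Gng12 and Gng13 had an unadjusted limma p under 0.05 on another probe set, the smallest being 0.00954 for Rgs3. Which members fell under 0.05 thus depended in part on the probe set. The 2 groups of pools did not overlap for 12 of the 56 members (21.4%), against 13.8% of all genes, 8 of them lower in the knockdown pools (5.39% of all genes) and 4 higher (8.42%). The median difference over the 56 genes was 0.01, beside 0.018 over all genes, and 26 members (46.4%, against 46.6% of all genes) had a lower mean in the knockdown pools. With the values as deposited, without quantile normalisation, that count was 38 (67.9%, against 58.1% of all genes), and the same 7 genes had p under 0.05.

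**Figure D1:**
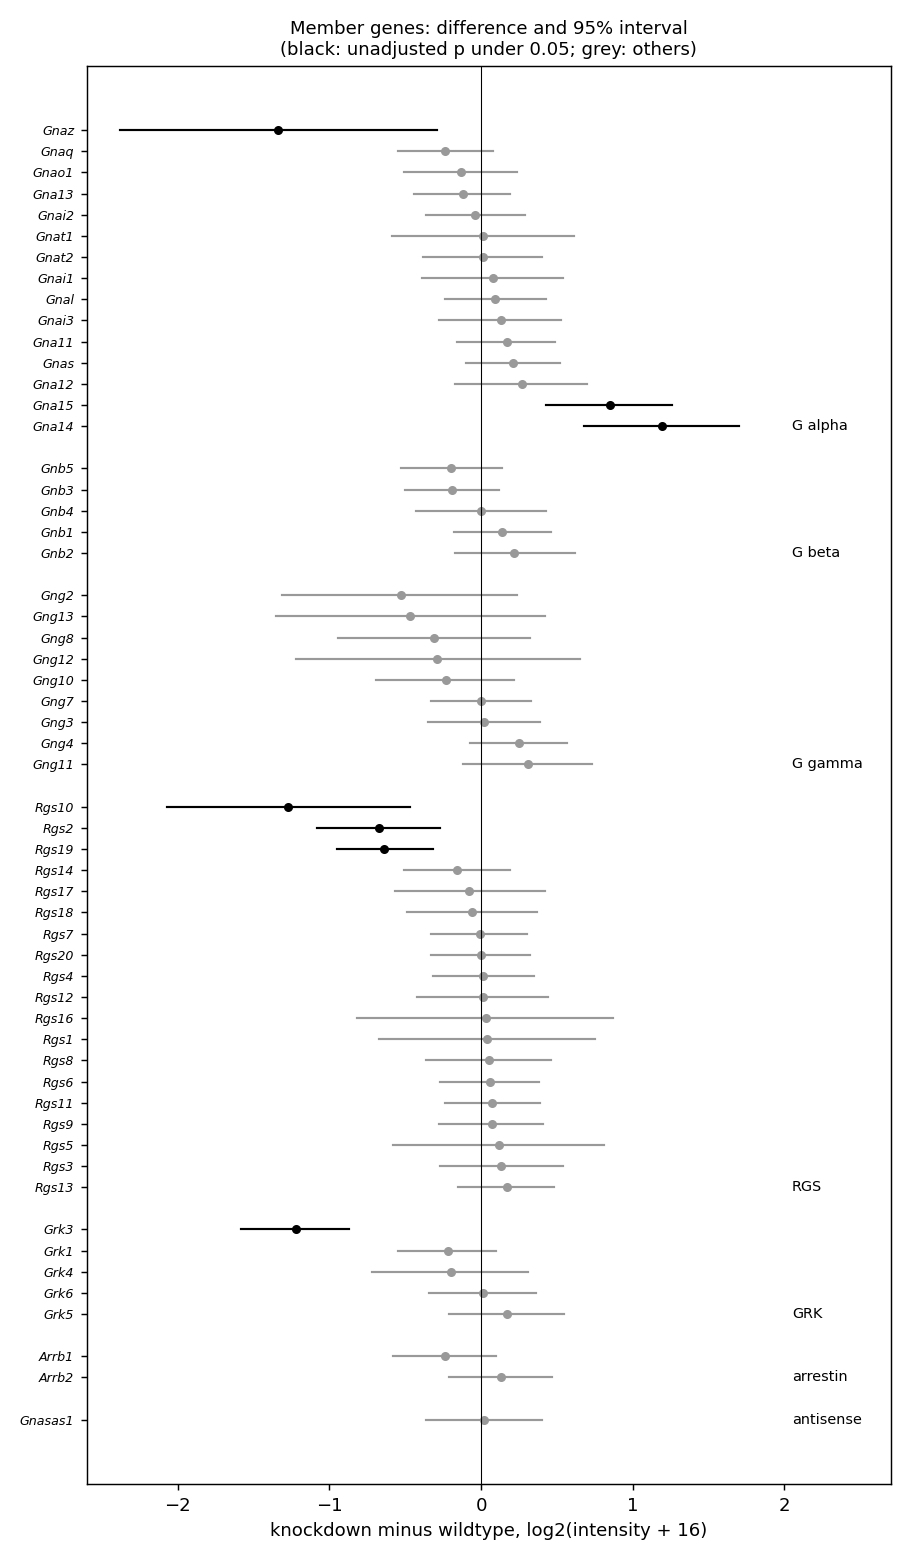
Difference between knockdown and wildtype (x axis, log2(intensity + 16) units) for each of the 56 member genes, by class, with the 95% interval of the limma fit; black marks an unadjusted p under 0.05. Grk3, Rgs10, Rgs2, Rgs19 and Gnaz lie to the left of 0 and Gna14 and Gna15 to the right, while the 49 other intervals cross 0.

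Grk3 had the smallest p of the members. Its product is a kinase of the beta-adrenergic receptor kinase subfamily, which is recruited to active receptors by G beta-gamma and is known to phosphorylate Cxcr4. Grk3 read 8.21, 8.41 and 8.31 in the wildtype pools against 7.05, 7.28 and 6.93 in the knockdown ones. Every knockdown pool lay more than a log2 unit below the wildtype pool means, and the deposited intensities were 284, 348 and 301 in wildtype against 106, 136 and 107 in the knockdown ones. The difference on the log2(intensity + 16) scale was -1.22 (SE 0.15), or 0.428 of the wildtype level on that scale, which understates the fold of the intensities, and its 95% interval ran from -1.58 to -0.87. It had rank 8 by p among all 44991 probe sets (limma p = 4.67e-05, Benjamini-Hochberg adjusted p = 0.203, exact permutation p = 0.1), and 3 pools against 3 allow no exact p below 0.1. The other probe sets of Grk3 differed by -1.02 (SE 0.26) and, for the dimmest, by -0.30 (SE 0.29).

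None of the 4 other GRK genes had an unadjusted p under 0.05. Grk6, a kinase of lymphoid and myeloid cells that also acts on Cxcr4, read 10.96, 10.92 and 10.94 in wildtype pools against 10.77, 10.91 and 11.17 in the knockdown ones. These ranges overlap, the difference was 0.01 (SE 0.15, 95% interval -0.34 to 0.36), and its sign turned to -0.0317 with the values as deposited. Grk5, a kinase held at the plasma membrane, read 6.48, 6.48 and 6.14 in wildtype pools against 6.68, 6.57 and 6.35 in the knockdown ones, which overlap and differ by 0.17 (SE 0.16). Grk1, the rhodopsin kinase of photoreceptors, was dim, with 5.41, 5.22 and 5.48 in wildtype pools against 5.09, 5.20 and 5.16 in the knockdown ones (difference -0.22, SE 0.14). Grk4 differed by -0.20 (SE 0.22).

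Both beta-arrestin genes were measured. Arrb1 read 9.34, 9.56 and 9.33 in wildtype pools against 9.24, 9.26 and 9.01 in the knockdown ones. The knockdown pools were lower without overlap, by a margin that did not pass (difference -0.24, SE 0.15, adjusted p = 0.788). Arrb2 read 9.82, 9.70 and 9.88 in wildtype pools against 9.98, 9.75 and 10.06 in the knockdown ones, which overlap (difference 0.13, SE 0.15).

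**Figure D2:**
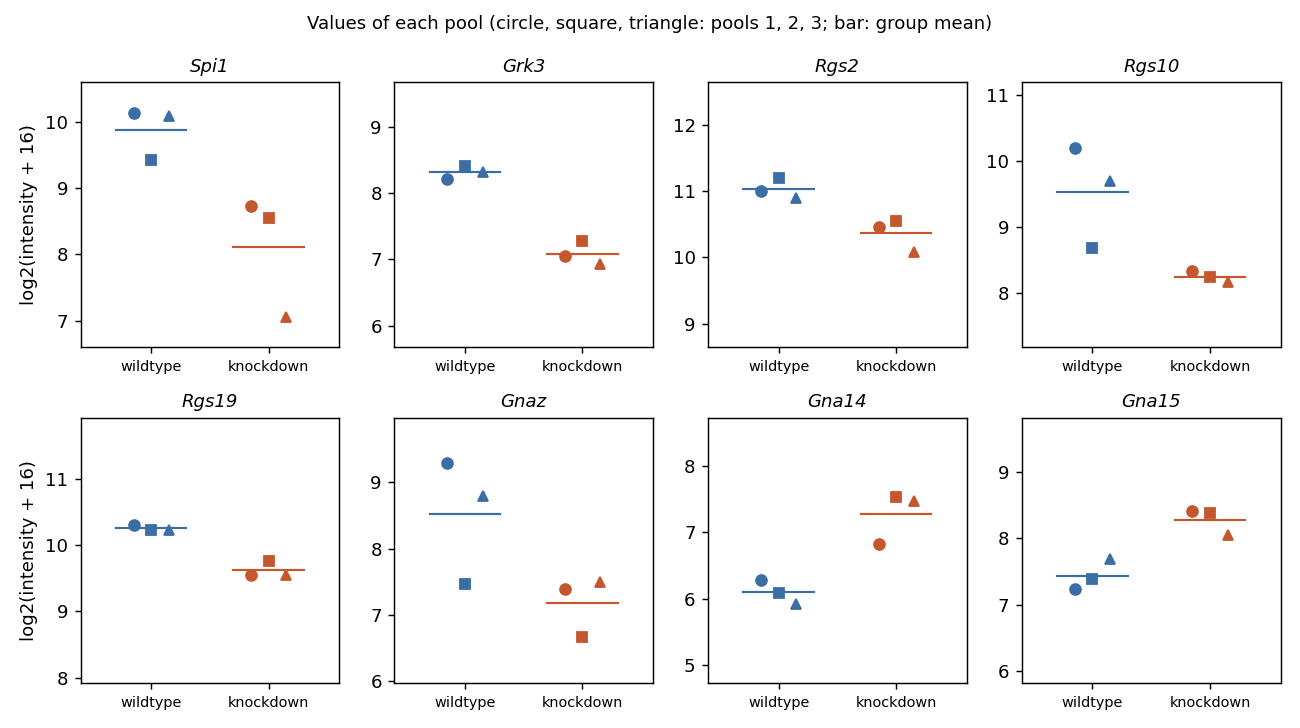
Value of each pool (y axis, log2(intensity + 16), each panel spanning 4 units) for Spi1 and the 7 members with an unadjusted p under 0.05; symbols mark the pool number and bars the group means. The groups are apart for every gene shown except Gnaz, where wildtype pool 2 at 7.46 lies below knockdown pool 3 at 7.49.

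Among the RGS genes, 3 of 19 had an unadjusted p under 0.05, and all 3 were lower in the knockdown pools (15.8%, beside 3.52% of all genes lower at that threshold). Rgs19, also called GAIP, a regulator of Gi-class subunits, read 10.30, 10.23 and 10.22 in wildtype pools against 9.55, 9.76 and 9.54 in the knockdown ones. The wildtype pools spanned 0.08, and all the knockdown pools lay below them. Deposited intensities were 1262, 1252 and 1159 against 646, 863 and 749, and the difference was -0.64 (SE 0.14, limma p = 0.00174, adjusted p = 0.471, exact permutation p = 0.1). The other probe set of Rgs19 differed by -0.51 (SE 0.22), with an adjusted p of 0.694.

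Rgs2, which acts mainly on Gq and whose transcript is known to be induced within minutes of stimulation, read 11.00, 11.20 and 10.90 in wildtype pools against 10.45, 10.55 and 10.08 in the knockdown ones. The groups were separate, with knockdown pool 3 lowest. The difference was -0.67 (SE 0.17, limma p = 0.00481, adjusted p = 0.526, exact permutation p = 0.1), or 0.627 of the wildtype level. Of its other probe sets, 2 differed by -0.91 (SE 0.26) and -1.04 (SE 0.23), whereas the dimmest differed by 0.17 (SE 0.16).

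Immediate early genes were also lower in the knockdown pools. Of 19 such genes measured, 16 had a lower mean in the knockdown pools and 11 an unadjusted p under 0.05, all lower. Over all genes, 46.6% had a lower mean and 3.52% were lower at that threshold, the background for this and the marker lists, while 4.1% were higher. This list and the marker lists were chosen with earlier results of these data known, so their counts are descriptive only. Pool means of the immediate early list were 9.34, 9.53 and 9.29 in wildtype pools against 8.94, 8.78 and 8.59 in the knockdown ones. Its summed deposited intensities ran from 21884 to 28775 in wildtype and from 13640 to 16881 in knockdown pools. Of the list, Ccn1 reached on an array the lower limit of the scale, where values under 1 are set to 1. Rgs1, another RGS gene induced by activation of lymphocytes and named after its values were seen, read 9.38, 10.46 and 9.58 in wildtype pools against 9.47, 9.91 and 10.17 in the knockdown ones, so its groups overlapped. The part of the early response in the Rgs2 difference was not tested.

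Rgs10 encodes a small RGS protein of platelets, microglia and lymphoid cells that acts on Gi-class subunits. Its only probe set read 10.20, 8.68 and 9.69 in wildtype pools against 8.34, 8.25 and 8.17 in the knockdown ones. The knockdown pools spanned 0.17, whereas the wildtype pools spanned 1.52, with wildtype pool 2 nearest to the knockdown values. Deposited intensities were 1176, 423 and 803 against 277, 289 and 277. The difference was -1.27 (SE 0.34, limma p = 0.00647, adjusted p = 0.545, exact permutation p = 0.1), and it ranged from -1.69 without wildtype pool 2 to -0.93 without wildtype pool 1.

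The 16 other RGS genes had differences between -0.16 and 0.17. Those of smallest p among the higher ones were Rgs13, a regulator of mast and germinal centre B cells, and Rgs3, a regulator of Gi and Gq. Rgs13 was dim, at 5.24, 5.29 and 5.10 in wildtype pools against 5.42, 5.43 and 5.28 in the knockdown ones (difference 0.17, SE 0.14). Rgs3 read 7.46, 7.95 and 7.48 in wildtype pools against 7.78, 7.65 and 7.86 in the knockdown ones (difference 0.13, SE 0.18), while another of its 4 probe sets differed by 0.68 (SE 0.20, adjusted p = 0.564). Rgs18, the RGS gene best known from megakaryocytes and named after its values were seen, read 9.59, 9.82 and 9.82 in wildtype pools against 9.69, 9.38 and 9.99 in the knockdown ones, with a difference of -0.06 (SE 0.19).

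G alpha genes went in both directions. Gna14 and Gna15 encode Gq-class subunits that activate phospholipase C beta, and the product of Gna15, also known as G alpha 16 in human, is largely restricted to blood cells and couples to many receptors. Gna15 read 7.23, 7.38 and 7.69 in wildtype pools against 8.41, 8.39 and 8.05 in the knockdown ones. All the knockdown pools were higher, with deposited intensities of 291, 318 and 253 against 138, 161 and 193, and the difference was 0.85 (SE 0.18, limma p = 0.00155, adjusted p = 0.458, exact permutation p = 0.1), or 1.8 times the wildtype level.

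Gna14 read 6.28, 6.08 and 5.92 in wildtype pools against 6.82, 7.54 and 7.47 in the knockdown ones. The knockdown pools were higher, but the gene was dim, since its deposited intensities of 63.1, 52.4 and 46.4 in wildtype pools lay below the array medians and those of knockdown pools were 89.1, 166 and 165. The difference was 1.19 (SE 0.22, limma p = 0.000716, adjusted p = 0.409, exact permutation p = 0.1). The 2 other probe sets of Gna14 differed by 0.56 (SE 0.16) and 1.18 (SE 0.28). The log2(intensity + 16) scale understates folds at this brightness.

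Gq-class subunits did not all share this direction. Gnaq, the widely expressed member of that class, read 10.31, 10.32 and 10.15 in wildtype pools against 9.98, 9.99 and 10.10 in the knockdown ones. Its knockdown pools were the lower ones without overlap, but the difference of -0.24 (SE 0.14) had an adjusted p of 0.77, and its 7 probe sets ran from -0.40 to 0.03. Gna11, the remaining member of the class, differed by 0.17 (SE 0.14).

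Gnaz encodes Gz, a Gi-class subunit that inhibits adenylyl cyclase and is known from platelets and neurons. It read 9.29, 7.46 and 8.80 in wildtype pools against 7.39, 6.66 and 7.49 in the knockdown ones. The groups overlapped, since wildtype pool 2 lay inside the knockdown range, and the exact permutation p was 0.2. The difference was -1.34 (SE 0.45, adjusted p = 0.632), and its other probe set, whose groups did not overlap, differed by -0.50 (SE 0.18). Without wildtype pool 1, wildtype pool 3 or knockdown pool 2, the unadjusted limma p of Gnaz was 0.0618, 0.0606 and 0.064, with differences of -0.95, -1.20 and -1.08.

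Gnas, which encodes the stimulatory subunit Gs, read 12.08, 12.02 and 11.94 in wildtype pools against 12.29, 12.12 and 12.26 in the knockdown ones. The knockdown pools were higher without overlap, by 0.21 (SE 0.13, adjusted p = 0.79), and 3 of its 5 probe sets had that sign, with a range from -0.22 to 0.48. Gnasas1, transcribed from the opposite strand of that locus, differed by 0.02 (SE 0.16). The 10 G alpha genes not yet named with pool values, among them the main Gi genes of blood cells, Gnai2 and Gnai3, had differences between -0.13 and 0.27 and 0 of them an unadjusted p under 0.05. Gnai2 averaged 11.96 ± 0.11 in wildtype and 11.92 ± 0.10 in knockdown pools (SD, n = 3).

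**Figure D3:**
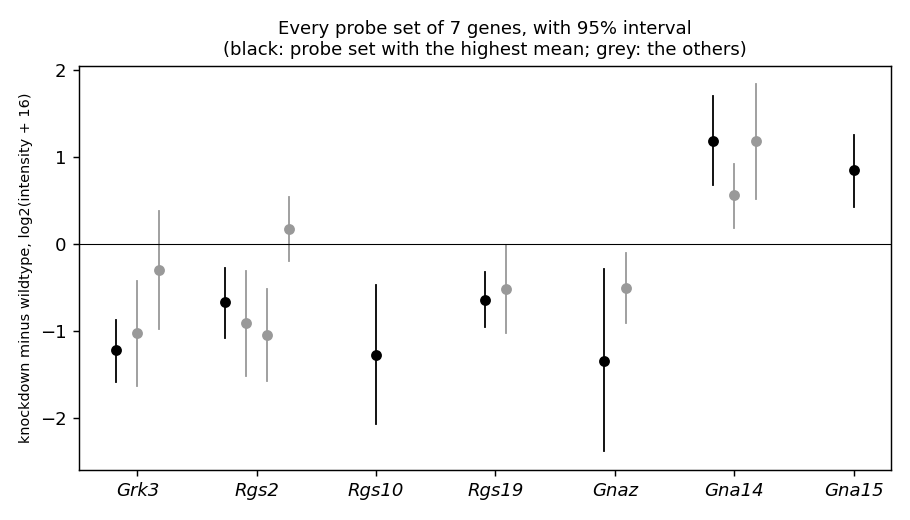
Difference between knockdown and wildtype (y axis, log2(intensity + 16) units) with its 95% interval for each probe set of the 7 genes with an unadjusted p under 0.05; black is the probe set with the highest mean. The differences of the 3 probe sets of Gna14 lie above 0. Those of the 2 each of Gnaz and Rgs19, of the 3 of Grk3 and of 3 of the 4 of Rgs2 lie below it. The interval of the dimmest Grk3 probe set, -0.98 to 0.38, crosses 0. Probe sets of a gene share the arrays and are not independent replicates.

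Platelet markers were lower beside Gnaz and Rgs10. Of 12 megakaryocyte and platelet markers measured, 11 had a lower mean in the knockdown pools and 6 an unadjusted p under 0.05. The list means were 9.75, 8.52 and 9.65 in wildtype pools against 8.58, 7.05 and 8.46 in the knockdown ones, and the summed intensities ran from 8416 to 17750 in wildtype and from 2974 to 8763 in knockdown pools, so the groups overlapped; 0 of the 12 markers reached the lower limit of the scale. Wildtype pool 2 was the lowest wildtype pool for the list, for Gnaz and for Rgs10, and knockdown pool 2 was lowest for the list and for Gnaz, whereas Rgs10 spanned 0.17 in the knockdown pools with pool 3 lowest. Wildtype pool 2 was likewise the lowest wildtype pool for the neutrophil (10.09), monocyte (8.03), eosinophil (7.83) and mast cell (6.33) list means. It was also the lowest for the stromal (6.58), erythroid, and T and NK (6.81) lists. For the stem cell list it was the highest wildtype pool, at 9.72 beside 9.01 and 9.0 in wildtype pools 1 and 3. Rgs18, named after its values were seen, was 9.82 in wildtype pool 2, which was not its lowest wildtype pool. The part of platelet-lineage RNA in the Gnaz and Rgs10 differences was not tested, and in such bulk pools fewer cells of a type and less RNA per cell cannot be told apart.

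Beside the higher Gna14 and Gna15, mast cell and basophil markers were higher in the knockdown pools for 8 of 9 genes, 5 of them with an unadjusted p under 0.05. Their list means were 7.41, 6.33 and 7.17 in wildtype pools against 7.64, 7.75 and 8.64 in the knockdown ones, with summed intensities of 703 to 3002 and 2245 to 4703 and 0 markers at the lower limit. The highest knockdown pool for the list was pool 3, which was the lowest knockdown pool for Gna15. Eosinophil markers went the other way, with list means of 10.06, 7.83 and 8.87 in wildtype pools against 7.25, 6.24 and 5.65 in the knockdown ones. The wildtype pools had the same order for this list as for Rgs10. That order was also found for Gnaz and for the platelet, monocyte, neutrophil, mast cell and erythroid lists. In the knockdown pools Rgs10 spanned 0.17, and its deposited intensities of 277, 289 and 277 did not have the order of the eosinophil list. Of the 5 eosinophil markers, 4 were lower, all 4 with an unadjusted p under 0.05. Their summed intensities ran from 2035 to 12721 and from 228 to 1181, and Alox15 reached the lower limit on an array. B lymphoid markers, 8 of 11 lower and 4 with an unadjusted p under 0.05, had list means of 7.47, 7.29 and 7.28 against 7.23, 7.06 and 6.35 and sums of 2137 to 2805 against 986 to 2062, with 0 at the lower limit. T and NK markers, 9 of 10 higher and 1 with an unadjusted p under 0.05, had list means of 6.93, 6.81 and 7.05 against 7.12, 7.18 and 7.42 and sums of 1800 to 4591 against 3204 to 4786, also with 0 at the lower limit. Monocyte and phagocyte markers were lower for 13 of 14 genes, 4 with an unadjusted p under 0.05, and stem cell markers for 14 of 17, 3 with such a p; 0 of either list reached the lower limit. Their list means overlapped between groups, with sums of 7598 to 13075 against 4407 to 9698 and of 11772 to 21857 against 11189 to 13546. The part of these cell types in the Grk3, Rgs10, Rgs19, Gnaz, Gna14 and Gna15 differences was not tested.

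**Figure D4:**
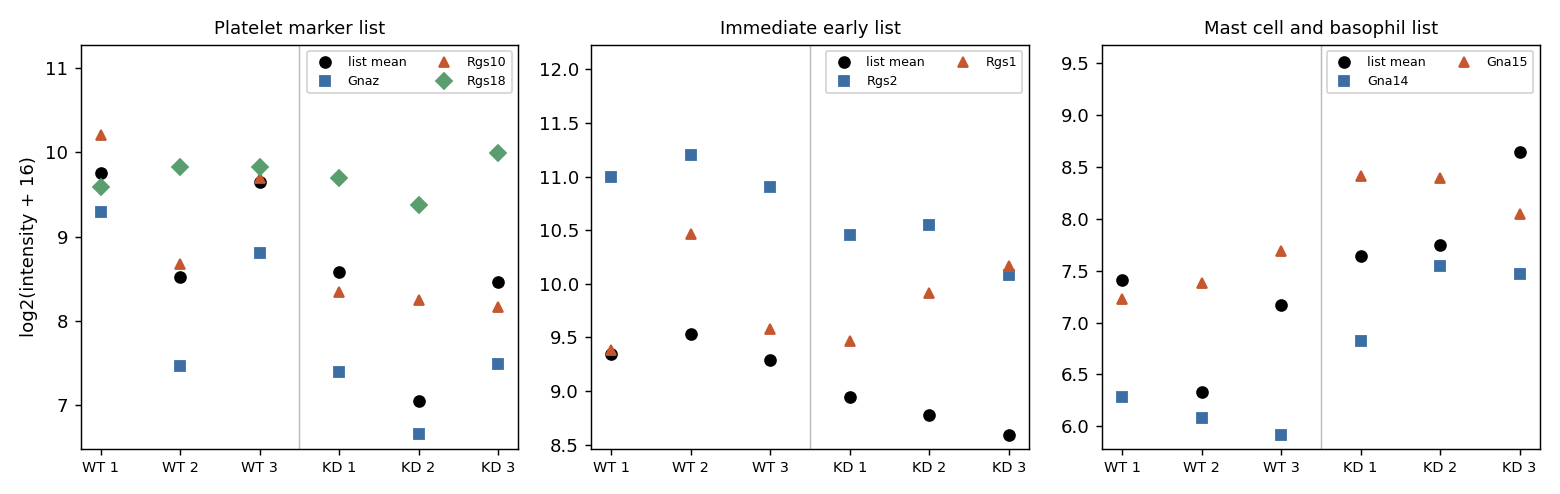
Log2(intensity + 16) by pool (x axis: wildtype, WT, and knockdown, KD, pools 1 to 3) for the mean of 3 marker lists and for members shown beside them. In wildtype pool 2 Gnaz, Rgs10 and the platelet list are at their lowest among wildtype pools, Rgs18 is not, and Rgs2 is lower in each knockdown pool, as is the immediate early list. Levels of different genes are not comparable with each other.

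On the probe sets that stood for them, the G beta and G gamma genes held 0 members with an unadjusted p under 0.05 out of 14. Gnb2 read 10.86, 10.54 and 10.85 in wildtype pools against 11.22, 10.81 and 10.90 in the knockdown ones (difference 0.22, SE 0.17). Gnb1 read 10.60, 10.73 and 10.75 in wildtype pools against 10.93, 10.72 and 10.85 in the knockdown ones (difference 0.14, SE 0.14). Both are widely expressed partners of the G gamma subunits, and for each the groups overlapped. Gnb5, the atypical G beta that pairs with the R7 class of RGS proteins, read 7.44, 7.56 and 7.49 against 7.48, 7.16 and 7.25 (difference -0.20, SE 0.15). Gnb3, best known from cone photoreceptors, was dim at 6.36, 6.43 and 6.54 against 6.31, 6.23 and 6.22 (difference -0.19, SE 0.13). Gnb4 differed by -0.005 (SE 0.19), and its other probe sets by 0.0 (SE 0.24) and 0.52 (SE 0.22).

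For several G gamma genes single pools stood apart from their group. Gng2, a main partner of Gnb1 in blood cells, read 7.67, 8.81 and 7.67 in wildtype pools against 7.48, 7.89 and 7.18 in the knockdown ones. Wildtype pool 2 stood 1.15 above the lowest wildtype pool, and the difference was -0.53 (SE 0.34, adjusted p = 0.789), with the same sign on all 4 probe sets. Without wildtype pool 2 it was -0.15, and on the second brightest probe set it was -0.09. Gng12, named after its values were seen, had the opposite pattern, with 8.62 in wildtype pool 2 beside 10.10 and 10.09 in pools 1 and 3 and 9.54, 9.52 and 8.89 in knockdown pools (difference -0.29, SE 0.40). Its other probe set differed by -0.61 (SE 0.26, adjusted p = 0.701 by limma). Without wildtype pool 2, Gng12 had an unadjusted limma p under 0.05. Wildtype pool 2 was the wildtype pool farthest from the other two for 23 of the 56 members, pool 1 for 16 and pool 3 for 17.

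Gng11, a farnesylated G gamma of endothelial cells and platelets, read 9.90, 10.12 and 9.88 in wildtype pools against 10.19, 10.03 and 10.61 in the knockdown ones (difference 0.31, SE 0.18). Gng10 read 10.22, 10.81 and 10.39 against 10.14, 10.47 and 10.11 (difference -0.23, SE 0.20). For both genes the groups overlapped, and the difference was 0.14 for Gng11 without knockdown pool 3 and -0.062 for Gng10 without wildtype pool 2. Gng4 read 7.29, 7.39 and 7.39 against 7.51, 7.76 and 7.56, higher in each knockdown pool by a margin that did not pass (difference 0.25, SE 0.14, adjusted p = 0.762). Gng13, known from taste and retinal cells, was dim, with 6.32, 6.84 and 6.86 against 6.75, 5.27 and 6.60. Its difference of -0.47 (SE 0.38) came from knockdown pool 2 and was 0.00235 without it, and its other probe set differed by 0.38. The 4 remaining G gamma genes differed by -0.31 to 0.02.

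**Figure D5:**
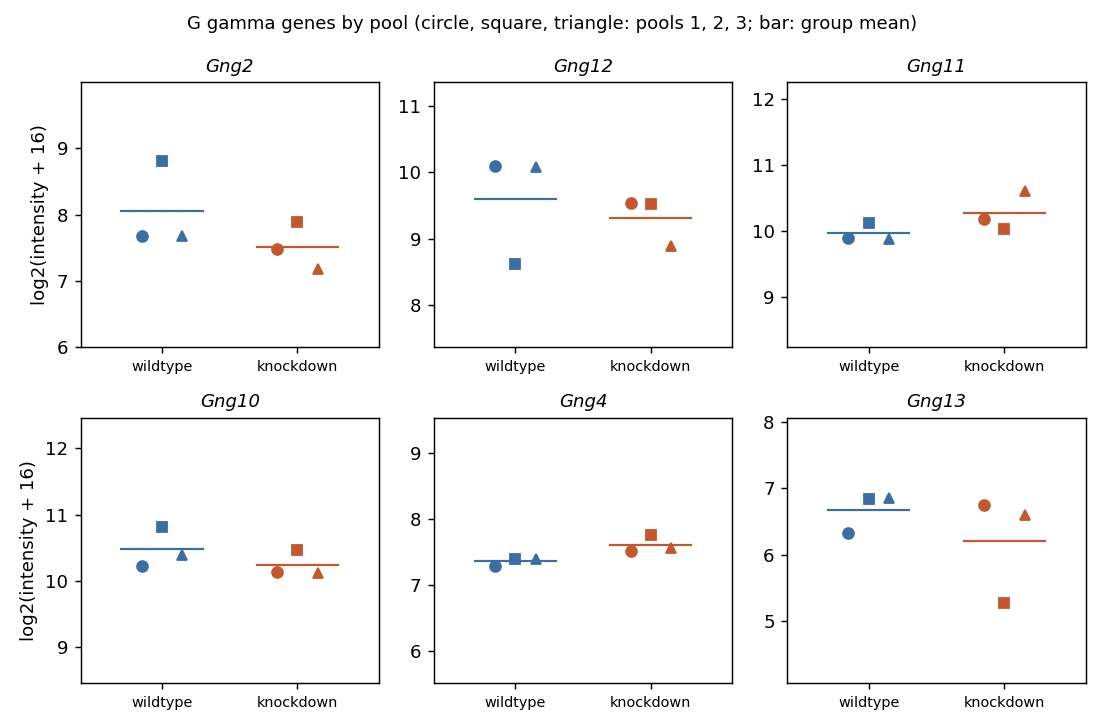
Value of each pool (y axis, log2(intensity + 16), each panel spanning 4 units) for 6 G gamma genes; symbols mark the pool number and bars the group means. Wildtype pool 2 is the high wildtype pool for Gng2 at 8.81 and the low one for Gng12 at 8.62, and knockdown pool 2 is low for Gng13 at 5.27.

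Windows of 250 bases upstream of the annotated gene starts were read from RefSeq sequence of GRCm38.p6, since the study lowered a transcription factor whose binding core reads GAGGAA and its title names the Jun family, whose AP-1 site reads TGANTCA. A window was present for 40 of the 56 members, some with several starts, and for Rgs2, Rgs10, Rgs19, Gna14 and Gna15 among the 7 genes above. GAGGAA on either strand was found in 17 of 55 member windows (30.9%), against 23.3% of all 32851 windows, and TGANTCA, which reads the same on both strands, in 3 of 55 (5.45%, against 6.75%); the 2 motifs were searched separately. Among the 5 genes, Rgs19 and Gna15 held GAGGAA, in all 3 Rgs19 windows, of which 2 overlap and share the same match, and in the Gna15 window, and 0 of the 7 windows held TGANTCA. Counted by gene, GAGGAA was found in 14 of the 40 members, against 6986 of all 27025 genes with a window. A match is a run of letters and not a measured binding site. Both sequences are shown because these genes, one lower and one higher in the knockdown pools, carry the match; capitals mark GAGGAA, each sequence runs 5′ to 3′ along the gene, and the Rgs19 sequence is that of its outermost start.
Rgs19, chr2:181693978-181694227, minus strand: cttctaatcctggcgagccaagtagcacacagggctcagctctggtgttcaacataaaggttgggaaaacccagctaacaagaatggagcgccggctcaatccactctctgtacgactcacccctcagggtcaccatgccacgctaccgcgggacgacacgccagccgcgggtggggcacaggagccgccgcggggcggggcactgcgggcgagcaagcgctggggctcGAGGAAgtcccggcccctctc
Gna15, chr10:81524226-81524475, minus strand: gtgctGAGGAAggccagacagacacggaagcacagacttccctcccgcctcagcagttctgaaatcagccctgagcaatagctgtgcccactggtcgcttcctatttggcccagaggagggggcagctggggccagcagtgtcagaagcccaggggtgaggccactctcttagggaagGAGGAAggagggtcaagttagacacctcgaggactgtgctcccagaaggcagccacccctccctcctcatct
The Rgs19 match begins 21 bases before the start, and the Gna15 matches begin 245 and 72 bases before it.

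The wider pathway was described with lists of effectors, of G protein chaperones and other regulators, and of G protein-coupled receptors of blood cells. Of their 103 genes measured, 6 were lower and 3 higher at an unadjusted p under 0.05 (8.74%, against 7.63% of all genes), 0 passed after adjustment, and the median difference was 0.015. Over all genes, 3.52% were lower and 4.1% higher at that threshold. The groups did not overlap for 12 of the 103 (11.7%), against 13.8% of all genes. Gpr65, a proton-sensing receptor of blood cells, had the smallest p. It read 7.71, 8.47 and 7.91 in wildtype pools against 9.19, 9.31 and 9.54 in the knockdown ones, and all the knockdown pools were higher (difference 1.32, SE 0.22, adjusted p = 0.378). Ptger3, a Gi-coupled prostaglandin E2 receptor gene, differed by 0.49 (SE 0.19) without overlap. Lower were Adgrl4, an adhesion receptor of endothelial cells (-1.36, SE 0.51), and Cxcr2, the neutrophil chemokine receptor (-1.20, SE 0.44), whose groups overlapped. Adgrl4 was 8.45 in knockdown pool 3 beside 10.49 and 10.22 in the other knockdown pools.

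Among 33 effectors, 2 were lower and 1 higher at that threshold. Pik3r5, the adaptor through which G beta-gamma activates phosphoinositide 3-kinase gamma, read 7.61, 6.92 and 7.16 in wildtype pools against 6.86, 6.63 and 6.29 in the knockdown ones (difference -0.64, SE 0.22). Kcnj5, a potassium channel opened by G beta-gamma, read 7.71, 5.51 and 7.73 against 5.62, 4.22 and 5.61, and wildtype pool 2 again lay inside the knockdown range (difference -1.83, SE 0.64). Prkar1a, a regulatory subunit of the cAMP-dependent kinase, was higher in all knockdown pools, by 0.46 (SE 0.17). Of the 23 chaperones and other regulators, 2 were lower and 0 higher: Snx13, a sorting nexin with an RGS domain (-0.41, SE 0.15), and Pdcl, which assists the assembly of G beta-gamma dimers (-0.38, SE 0.15). For Pik3r5, Prkar1a, Snx13 and Pdcl the groups did not overlap, as for 13.8% of all genes, and the adjusted p by limma was 0.652, 0.656, 0.656 and 0.676.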

How the data were processed

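Each of 6 one-colour Affymetrix arrays held amplified RNA of a pool of sorted mouse HSC. The authors deposited 1 linear intensity for each probe set, already processed. Its software, background handling and scaling were not given in the sources used here, and 264 to 409 values per array were below 0. RNA was amplified in 2 rounds per the labels' protocols, which adds noise to weak transcripts.

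After raising anything below 1 to 1, the values were put on the log2(value + 16) scale. The array medians spread over more than 0.1 on that scale, from 6.605 to 6.748, so arrays were quantile normalised. For all 44991 probe sets the groups were compared by limma 3.58.1 under R 4.3.3, using lmFit then eBayes (two-sided, Benjamini-Hochberg over all probe sets, threshold 0.05, 7.81 degrees of freedom), checked on simulated data. The number of arrays limits the precision, and the labels name pools of separate animals as replicates. Of the probe sets, 34921 had 1 symbol, 930 several and 9140 none; 56 of 56 member symbols matched the RefSeq table. Members and lists were chosen with earlier results of these data known. Genes named with pool values were, in each class, those with p under 0.05, otherwise up to 2 of smallest p per direction, and the brightest; for the wider lists, up to 3 per direction could be named. Gna11, Gnai2, Gnai3, Gnb4, Gng12, Grk4, Rgs1 and Rgs18 were named outside that rule, after their values were seen. The labels state no pairing of the arrays by replicate number. Same-numbered pools had deviations from their group means that correlated at 0.178, 0.061 and -0.039. Differently numbered pools gave -0.198 to 0.154, so these correlations cannot settle whether same-numbered pools shared a step. Alternatives were the values as deposited, median centring, a pseudocount of 1 or of 64, leaving out probe sets whose mean lay under the 40th or the 60th percentile, a trended or robust eBayes, array weights, a replicate block, other probe set choices and each array left out. Figures used Python 3.11.15 and matplotlib 3.10.9.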

Additional observations from a re-analysis of the deposited data

How the results depend on the processing

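In the 10 alternatives fitted on probe sets, all or filtered, with the full set of arrays, 0 members passed at an adjusted p under 0.05. The same held with each array left out, and that count was not made for the other probe set choices. Over the probe sets tested, the count passing was 0 with all arrays and 0 to 2 with 1 left out. Grk3, Rgs2 and Rgs19 kept their sign and an unadjusted p under 0.05 in all 12 alternatives other than leaving out an array and in all 6 that did so, as did Gna14, Gna15 and Rgs10 in the 11 that measured them and in those 6; adjusted p of Grk3 ran from 0.132 to 0.703. Gnaz lost p under 0.05 in 3 of those 6. The labels do not state whether the replicate numbers pair the arrays. With a replicate block 6 members were lower at p under 0.05 in place of 5, Gng2 being added, and no call after adjustment changed. The unadjusted limma p of Gnaz was then 0.00104.

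With the filter at the 60th percentile, which left 35 members, 1 was higher at p under 0.05 and 17 had a lower mean, and 3 of the wider pathway genes were lower at p under 0.05. The second brightest probe sets, which 36 members have, gave 4 members higher (Gna12, Gna14, Gng13 and Rgs3), 13 with a lower mean, and 3 pathway genes lower. Over all probe sets, 2095 and 1475 had p under 0.05 with the filters at the 40th and 60th percentile, in place of 3200, since fewer were tested. With the values as deposited 10 pathway genes were lower in place of 6, and the median member difference was -0.059; the cause was not tested. With array weights 5 pathway genes were higher in place of 3. With 1 array left out, the pathway genes lower numbered 3 to 8 and those higher 2 to 8, with 8 in each direction without wildtype pool 2, 3 lower without wildtype pool 1 and 5 higher without knockdown pool 2. The median member difference then ran from -0.058, without knockdown pool 1, to 0.033. Signs turned for Gng13 (0.38 on its second probe set, and -0.74 to 0.00235 with 1 array left out, the latter without knockdown pool 2) and Grk6 (-0.0317 with the values as deposited, and -0.0988 to 0.099 with 1 array left out, the lower without knockdown pool 3). With 3 pools a group, exact permutation cannot go below 0.1.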
